A study of Mus musculus with 6 samples.

Results

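The genes described here are the HOX genes of the mouse together with their CDX regulators and their MEIS and PBX partners, measured in endothelial progenitors sorted on embryonic days 7.5 and 8.5 (stages E7.5 and E8.5). They were chosen by gene symbol alone. Every gene whose probe sets carried a single annotated symbol of the form Hoxa, Hoxb, Hoxc or Hoxd plus a number, or Cdx, Meis or Pbx plus a number, was taken. This gave 37 of the 16523 genes of the table, covered by 114 of its 77669 single-symbol probe sets. There were 29 HOX genes (7 of HoxA, 10 of HoxB, 4 of HoxC and 8 of HoxD), 2 CDX genes, 3 MEIS genes and 3 PBX genes. Other genes of these families, such as Hoxa3, Hoxa5 and Cdx4, were not analysed here. Another 4 probe sets annotated to Hoxd4 and Hoxd3 together were left out.

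The cells came from embryos of ICR females mated with ETV2::GFP males, and all 6 samples carried the same reporter and passed the same gate. ETV2 is a transcription factor of emerging endothelial and blood precursors, and the GFP reporter stands for its expression. FLK1 is the receptor for vascular endothelial growth factor, and CD41 marks cells that have entered the blood lineage. ETV2::GFP+FLK1+CD41- cells were sorted at E7.5 (3 arrays) and at E8.5 (3 arrays), with 50 cells for each array, and their RNA was amplified before hybridisation to an Affymetrix exon array. The study describes the E8.5 cells as taken from the embryo proper and the E7.5 cells as extra-embryonic, so that stage and site cannot be told apart. Nothing states that replicates came from separate litters, so the p-values cover the variation among these 6 samples only. In sorted bulk samples, fewer cells of a type and less RNA per cell cannot be told apart either.

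HOX genes lie in 4 clusters, HoxA to HoxD, and encode homeodomain transcription factors that give cells their position along the head to tail axis. Genes are numbered by paralog group, and those with low numbers are as a rule switched on earlier and further forward than those with high numbers. CDX proteins bind HOX clusters and help to switch on their central genes in the posterior embryo, while MEIS and PBX proteins are homeodomain partners that bind DNA together with HOX proteins. In the blood and vascular lineages, members of all 4 families are known regulators of progenitor growth.

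Levels are given as log2 signal, so that a difference of 1 is a 2-fold difference. For each gene and array the level is the median over the probe sets of that gene. A probe set is a small group of probes that reads 1 stretch of the gene, and different probe sets of a gene can sit on different exons. Probes differ in affinity, so levels were compared between arrays and never between genes. The values carry no detection calls, and a low level cannot be told from no expression. Of the 37 genes, 22 (16 of them HOX genes) had a mean above 6.78, the median over all genes. Only 6 genes rested on 1 probe set, 12 rested on 2 and 19 on 3 or more, with at most 9.

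The array medians lay between 6.98 and 7.07, so no array stood apart in overall brightness. Among the genes of the gate, Etv2 read 11.66, 12.09 and 11.72 at E7.5 and 11.60, 10.93 and 11.48 at E8.5. It was lower at E8.5 without overlap, by a log2 fold change of -0.49 (SE 0.25, limma adjusted p = 0.72). Kdr, the gene of FLK1, had a log2 fold change of -0.73 with overlapping stages. There was no ungated sample, so these levels cannot show the gate itself. All 10 genes of the endothelial list were measured, and their mean level was 7.70, 8.68 and 7.51 at E7.5 and 8.40, 8.51 and 8.35 at E8.5. Emcn and Cd34, surface proteins of endothelium, were higher at E8.5 at an unadjusted p under 0.05, with log2 fold changes of 2.58 and 1.41 and no overlap. Over 5 measured blood genes the mean level was 7.29 to 7.36 at E7.5 and 5.67 to 5.95 at E8.5. Their median log2 fold change was -0.52. Of the 5, 2 (Hbb-bh1 and the erythroid factor Gata1, at -1.86) were lower at an unadjusted p under 0.05. The others had log2 fold changes of -0.52 (Itga2b), -0.11 (Klf1) and 0.04 (Hba-x). The embryonic globin Hbb-bh1 (limma, adjusted p = 0.046) and the signal Bmp4 (limma, adjusted p = 0.035), which is made in extra-embryonic mesoderm, passed the adjusted threshold with log2 fold changes of -4.87 and -5.39. The neural list had a mean level over 4 of its 6 genes of 5.48 to 5.80 at E7.5 and of 5.92 to 6.17 at E8.5. E8.5 replicate 2 had the highest cardiac level, 9.14 over 6 genes, against 7.55 and 7.42 in the other E8.5 arrays and 7.65 to 8.40 at E7.5. In that list Mef2c was higher and Myl7 lower at E8.5 at an unadjusted p under 0.05, by log2 fold changes of 1.42 and -2.55. The remaining marker lists had median log2 fold changes of -0.01 (allantois, 6 of 6 genes), 0.20 (primitive streak and presomitic mesoderm, 5 of 8), 0.17 (somite, 6 of 6), 0.05 (trophoblast, 7 of 8) and -0.24 (visceral endoderm, 6 of 6). The allantois list includes Bmp4. Behind the trophoblast median, the keratins Krt8 and Krt18 were lower at an unadjusted p under 0.05, with log2 fold changes of -2.05 and -1.91.

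Between the stages, only 3 of the HOX, CDX, MEIS and PBX genes, all of them HOX genes, shifted by more than 2-fold on average. Hoxa7 and Hoxc9 had higher means at E8.5, Hoxb2 had a lower mean (its median came from different probe sets in different arrays, as described with the gene), and the other 34 genes differed by less than 2-fold in either direction. No gene of the 37 passed an adjusted p of 0.05 in the limma fit over all genes, in which 18 genes did, or 0.109% of those tested. The lowest adjusted p among the 37 was 0.20, for Hoxa7. At an unadjusted p under 0.05, 3 of the 37 were higher at E8.5 (Hoxa7, Hoxb6 and Hoxc9), where 3.11% of all genes were, and 2 were lower (Hoxb2 and Hoxc4), where 4.68% of all genes were. The split depended on how probe sets were summarised, with 6 higher and 0 lower when their mean was taken and 5 higher and 1 lower with the brightest alone. At 2-fold the counts were 2 higher, against 2.72% of all genes, and 1 lower, against 4.79%. Hoxa9, Meis2 and Pbx2 lay just under this mark, with means 1.99-fold, 1.99-fold and 1.97-fold higher at E8.5. With the mean over probe sets, Hoxa4 passed 2-fold (log2 fold change 1.05) and Hoxb2 did not (-0.66).

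Counting only whether the 3 arrays of a stage lay entirely above the 3 of the other gave 5 genes higher at E8.5 (Hoxa7, Hoxb5, Hoxb6, Hoxc9 and Hoxd3), where 7.1% of all genes were. It gave 3 genes lower (Hoxb2, Hoxb7 and Hoxc4), where 7.12% of all genes were. With the mean over probe sets the split was 9 higher and 1 lower, and with the brightest probe set 6 higher and 1 lower. The median log2 fold change was 0.16 over the 37 genes and also over the 29 HOX genes, against 0.0035 over all genes, and that of the HOX genes was 0.06 without E7.5 replicate 2 and at most 0.23 without any other array. Of the 29 HOX genes, 18 had a positive log2 fold change and 11 a negative one. For 18 of the 37 genes, 15 of them HOX genes, the whole 95% confidence interval of the difference lay within 2-fold. Over all genes this held for 9112 of 16523. For the other 19 of the 37 genes a 2-fold difference was within the interval or exceeded.

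**Figure D1:**
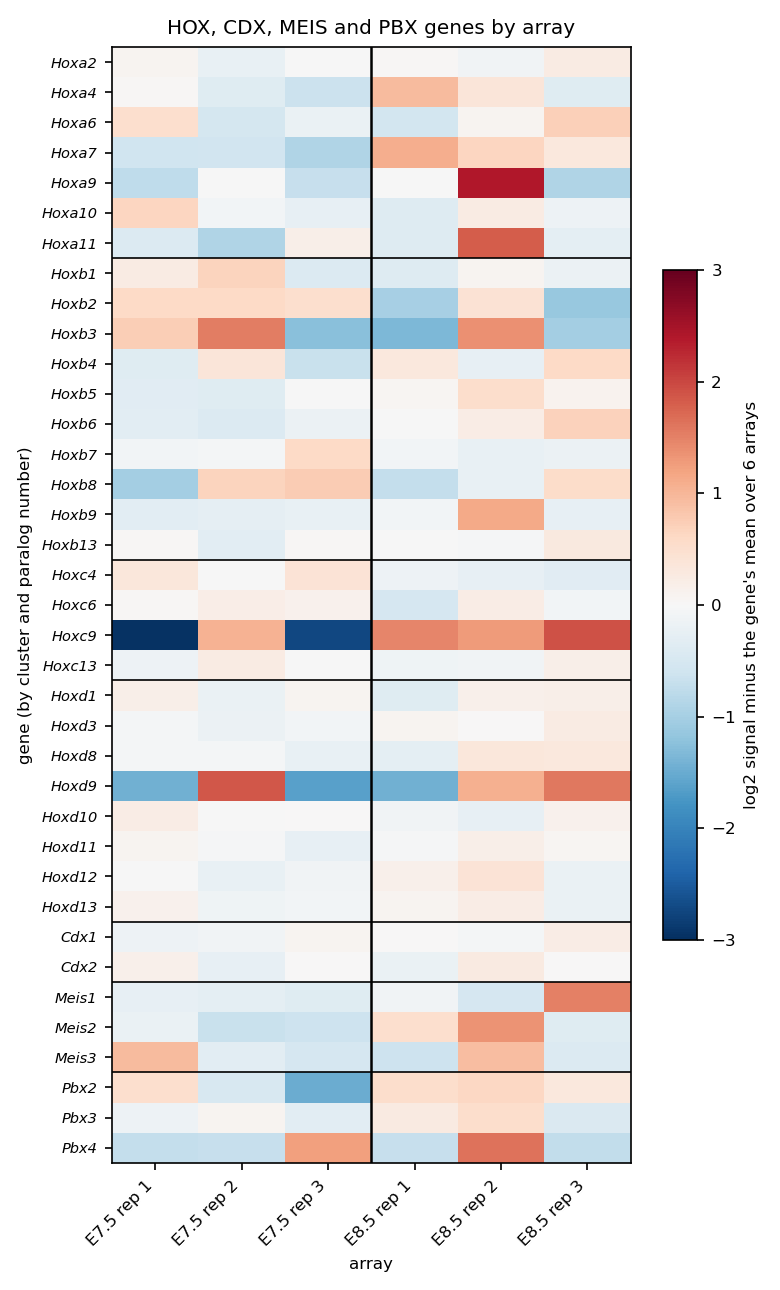
Levels of the 37 genes in the 6 arrays, shown as log2 signal minus the mean of the gene over all arrays (red above, blue below). Rows are genes in order of cluster and paralog number, the vertical line parts E7.5 from E8.5, and the strongest colours are those of Hoxa9 in E8.5 replicate 2 and of Hoxc9 in E7.5 replicates 1 and 3.

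**Figure D2:**
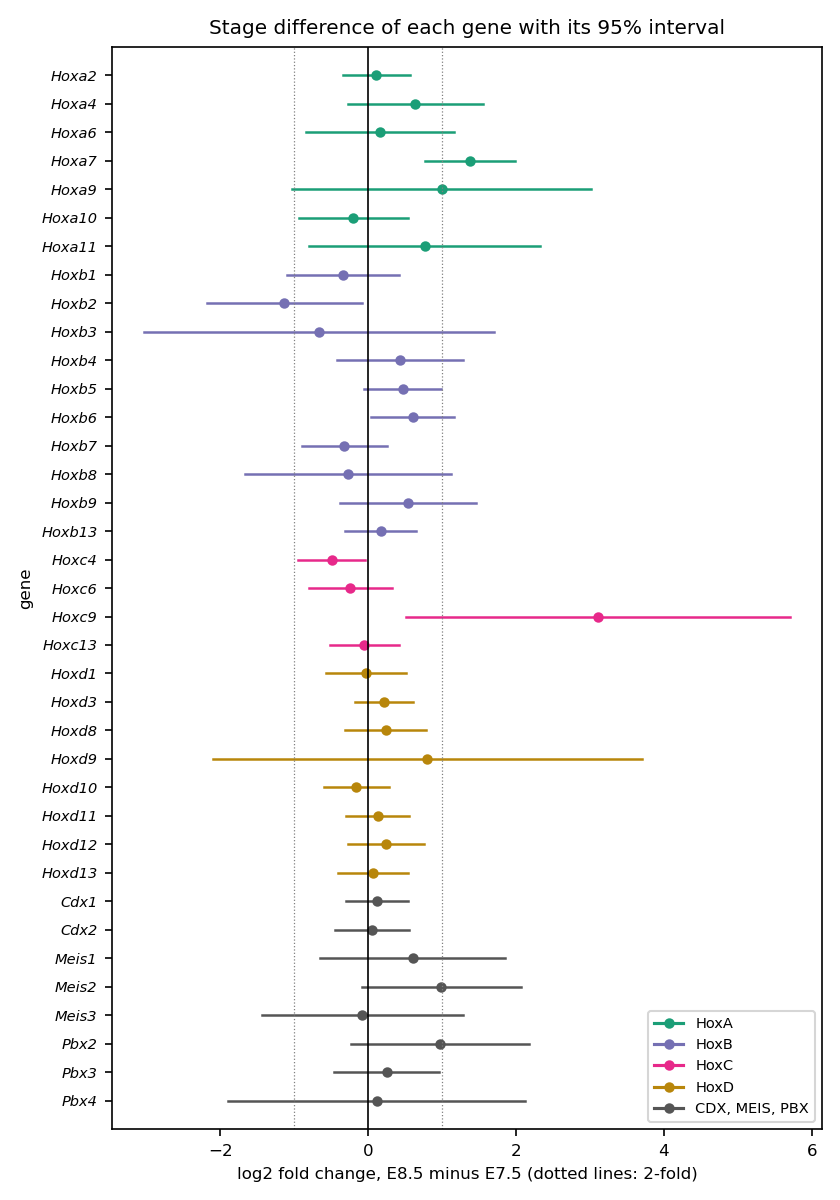
Log2 fold change of each gene (E8.5 minus E7.5) with its 95% confidence interval from the limma fit, 3 arrays a stage. Dotted lines mark 2-fold, and only the intervals of Hoxa7, Hoxb6 and Hoxc9 lie wholly above 0 and those of Hoxb2 and Hoxc4 wholly below it.

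HoxA had a median log2 fold change of 0.64 over 7 genes, 6 of which were positive. Without E8.5 replicate 2 this median was 0.17, and with the brightest probe set of each gene it was 0.16, against 0.41 for HoxB. The gene with the smallest error for its size was Hoxa7, a central HOX gene. Its level was 7.10, 7.12 and 6.78 at E7.5 and 8.78, 8.33 and 8.01 at E8.5. The stages did not overlap, and the lowest E8.5 array stood clear of the highest E7.5 array. This gave a log2 fold change of 1.38 (SE 0.25, 95% interval 0.77 to 1.98, limma adjusted p = 0.20), a 2.60-fold difference. Hoxa7 was read by 6 probe sets, and in 5 of them all E8.5 arrays were above all E7.5 arrays, with log2 fold changes of 0.92 to 3.65. The exception was the brightest probe set, which read 8.43, 8.88 and 8.69 at E7.5 and 8.71, 8.30 and 8.66 at E8.5. The probe sets thus disagreed in size, and the largest difference came from the dimmest probe set, which read 1.19 to 1.64 at E7.5 and 4.35 to 6.11 at E8.5. The 250 bases before the RefSeq start of Hoxa7 (GRCm38.p6, chr6:52218574-52218823, minus strand) are shown because this gene had the lowest p of the 37. They hold none of the MEIS, PBX-HOX, CDX or homeodomain motifs described with the promoters of Hoxb1 and Hoxb8, so no letter is in capitals.
Hoxa7: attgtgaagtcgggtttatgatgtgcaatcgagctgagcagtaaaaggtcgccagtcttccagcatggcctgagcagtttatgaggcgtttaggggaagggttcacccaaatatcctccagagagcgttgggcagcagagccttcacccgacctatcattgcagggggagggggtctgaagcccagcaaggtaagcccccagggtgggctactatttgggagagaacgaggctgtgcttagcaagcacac

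In their gene medians, Hoxa9 and Hoxa11, posterior genes of the same cluster, were led by a single array. Hoxa9 is a regulator of blood progenitor growth. Its level was 6.07, 6.82 and 6.15 at E7.5 and 6.82, 9.24 and 5.95 at E8.5. The stages overlapped, and E8.5 replicate 2 alone was high in the gene median. Its brightest probe set was also high in E7.5 replicate 2 and E8.5 replicate 1. That probe set read 6.67, 9.96 and 6.64 at E7.5 and 9.48, 10.75 and 6.69 at E8.5. Hoxa9 had a log2 fold change of 0.99 (SE 0.83), which was 0.04 without E8.5 replicate 2. Hoxa11, known from limb and urogenital development, read 5.33, 4.83 and 5.90 at E7.5 and 5.36, 7.54 and 5.45 at E8.5. Its log2 fold change of 0.77 (SE 0.64) became 0.05 without E8.5 replicate 2, and all 3 of its probe sets were highest in that array.

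The remaining HoxA genes had overlapping stages. Hoxa4, an anterior gene, was read higher at E8.5 by all 4 of its probe sets, with gene levels of 7.20, 6.79 and 6.53 at E7.5 and 8.12, 7.52 and 6.80 at E8.5. Hoxa4 had a log2 fold change of 0.64 (SE 0.38, limma adjusted p = 0.74). Hoxa2, Hoxa6 and Hoxa10 had log2 fold changes of 0.11, 0.16 and -0.20, and all 3 were dim, with levels between 3.69 and 5.89.

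HoxB showed the most mixed picture, with 5 of its 10 genes positive, 5 negative and a median log2 fold change of -0.05 (0.0047 after a further quantile normalisation). The gene medians of Hoxb1, Hoxb2 and Hoxb3 were lower on average at E8.5 and those of Hoxb4, Hoxb5 and Hoxb6 higher, but the brightest probe sets of Hoxb1, Hoxb2 and Hoxb3 gave log2 fold changes of 0.63, 0.10 and 0.10. Hoxb2, which acts with Hoxb1 in the hindbrain, had levels of 8.91, 8.90 and 8.81 at E7.5 and 7.31, 8.74 and 7.18 at E8.5. The E7.5 arrays were tightly grouped, and at E8.5 replicate 2 stayed close to them while the other arrays were low. The mean difference on the log2 scale was -1.13 (SE 0.43, 95% interval -2.18 to -0.09, limma adjusted p = 0.59), a 2.19-fold difference. This value sets different probe sets against each other, since the median was that of the brightest probe set in all 3 E7.5 arrays and E8.5 replicate 2, and that of another in E8.5 replicates 1 and 3. None of its 3 probe sets parted the stages by itself. The brightest had a log2 fold change of 0.10, and the others of -0.29 and -1.78. The one with the largest difference read 9.39, 6.71 and 9.28 at E7.5 and 5.70, 8.82 and 5.53 at E8.5, low in E7.5 replicate 2 and high in E8.5 replicate 2. No size can therefore be given for a stage difference of Hoxb2 as a whole.

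Hoxb3 and Hoxb4 are of interest because the study also included them in its single-cell primer panel. Hoxb3 varied more within each stage than between them, at 8.98, 9.77 and 6.98 at E7.5 and 6.89, 9.61 and 7.24 at E8.5. The stages differed by a log2 fold change of -0.66 (SE 0.97, limma adjusted p = 0.90), with 4 of its probe sets higher at E8.5 and 2 lower. Its brightest probe set was steady in all arrays, between 12.62 and 12.92, whereas another ran from 6.58 to 12.24. Hoxb4, which promotes the growth of blood progenitors, had gene levels of 6.29, 7.02 and 5.97 at E7.5 and 6.95, 6.39 and 7.23 at E8.5. These overlapped, and the log2 fold change was 0.43 (SE 0.35, limma adjusted p = 0.80). All 5 of its probe sets were higher on average at E8.5, and in 3 of them the stages did not overlap. The brightest of these read 10.11, 10.13 and 10.16 at E7.5 and 10.55, 10.63 and 10.52 at E8.5, a small difference against a very narrow spread.

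In their gene medians, Hoxb5, Hoxb6 and Hoxb7 had stages that did not overlap. Hoxb6 was read by a single probe set, at 8.18, 8.10 and 8.33 at E7.5 and 8.48, 8.74 and 9.20 at E8.5. The difference was 0.60 on the log2 scale (SE 0.23, limma adjusted p = 0.60), and it had no other probe set to compare with. Hoxb5 read 6.73, 6.69 and 7.04 at E7.5 and 7.11, 7.59 and 7.16 at E8.5. The log2 fold change was 0.47 (SE 0.21, limma adjusted p = 0.68), and 3 of 3 probe sets were higher on average. None of the 3 parted the stages by itself. The median was that of 1 probe set in every array but E7.5 replicate 3, where that probe set read 7.28. Hoxb7 went the other way only in its gene median, which was 6.60, 6.62 and 7.28 at E7.5 and 6.60, 6.45 and 6.49 at E8.5 (log2 fold change -0.32, SE 0.24, limma adjusted p = 0.78). The lowest E7.5 array and the highest E8.5 array met at 6.60. Both other probe sets of Hoxb7 were higher on average at E8.5, by 0.54 and 2.21, and the dimmer of them read 2.84 to 3.82 at E7.5 and 5.28 to 6.09 at E8.5. No direction can be given for Hoxb7 as a whole.

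Hoxb9, the posterior gene next in line, had E7.5 levels of 6.30, 6.36 and 6.41 and E8.5 levels of 6.55, 7.76 and 6.39. Again E8.5 replicate 2 stood apart in the gene median, and the log2 fold change of 0.54 (SE 0.38) became 0.11 without it. Of the 4 probe sets of Hoxb9, 2 were highest in that array. The brightest was level at E8.5, at 7.13, 7.15 and 7.15. The dimmest parted the stages, at 3.45 to 4.03 at E7.5 and 4.86 to 8.61 at E8.5. Hoxb1, Hoxb8 and Hoxb13 had log2 fold changes of -0.34, -0.27 and 0.17 with overlapping stages. Hoxb8 ran from 7.57 to 9.35 within E7.5 alone.

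HoxC was covered by only 4 genes and its median (-0.15) and mean (0.58) log2 fold change differed in sign. Hoxc9, a posterior gene of the trunk, had the largest difference of all 37. Its level was 5.77, 9.79 and 6.02 at E7.5 and 10.20, 10.03 and 10.66 at E8.5. All 3 E8.5 arrays were high and close together, while E7.5 replicate 2 lay near them and far above the other E7.5 arrays. The fitted log2 fold change was 3.11 (SE 1.07, 95% interval 0.51 to 5.70, limma adjusted p = 0.56), an 8.61-fold difference, and was 4.40 without E7.5 replicate 2 (limma adjusted p = 0.051). Both of its probe sets gave this pattern. E7.5 replicate 2 was also the E7.5 array with the highest endothelial level (8.68, against 7.70 and 7.51), and the part of this in the Hoxc9 result was not tested.

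Hoxc4 was lower at E8.5 in a narrow range of dim levels, at 5.56, 5.21 and 5.62 at E7.5 and 5.06, 4.98 and 4.88 at E8.5. The stages did not overlap, and the gene median was that of the same probe set in every array. The log2 fold change was -0.49 (SE 0.19, 95% interval -0.95 to -0.04, limma adjusted p = 0.59). The other probe sets had log2 fold changes of -0.19 (the brightest) and -0.05 with overlapping stages, and the mean over probe sets gave -0.25. Hoxc6 and Hoxc13 had log2 fold changes of -0.24 and -0.05 with overlapping stages. The 250 bases before the RefSeq start of Hoxc4 (GRCm38.p6, chr15:103034145-103034394, plus strand) are shown as those of a gene that was lower at E8.5, for comparison with Hoxa7. They hold none of the motifs searched for either, so no letter is in capitals.
Hoxc4: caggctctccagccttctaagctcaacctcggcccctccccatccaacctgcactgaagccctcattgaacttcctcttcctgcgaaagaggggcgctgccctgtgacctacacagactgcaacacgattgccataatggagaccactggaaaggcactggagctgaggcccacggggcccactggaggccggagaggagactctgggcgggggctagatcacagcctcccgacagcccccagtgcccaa

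HoxD was the steadiest cluster by the confidence intervals of its gene medians. They lay within 2-fold for 7 of its 8 genes, against 9112 of all 16523 genes. Its median log2 fold change was 0.17, with 6 genes positive. Hoxd3 was the only HoxD gene without overlap, at 8.74, 8.64 and 8.72 at E7.5 and 8.88, 8.81 and 9.05 at E8.5. Its difference was small, a log2 fold change of 0.21 (SE 0.16, limma adjusted p = 0.79), and both probe sets gave it. Hoxd9 was the exception to the steadiness of the cluster, at 6.91, 10.22 and 6.71 at E7.5 and 6.91, 9.41 and 9.92 at E8.5. Arrays of both stages lay either between 6.71 and 6.91 or between 9.41 and 10.22, both probe sets moved together, and the log2 fold change of 0.80 had an SE of 1.19. Like Hoxc9, Hoxd9 was high in E7.5 replicate 2 alone among the E7.5 arrays, and so was the brightest probe set of Hoxa9. The other HoxD genes, Hoxd1, Hoxd8, Hoxd10, Hoxd11, Hoxd12 and Hoxd13, had log2 fold changes between -0.16 and 0.24. Of these, Hoxd8, Hoxd10, Hoxd12 and Hoxd13 were dim, with levels between 4.92 and 6.13, which cannot be told from no expression. Single probe sets of Hoxd11 (0.54, the other -0.28), Hoxd8 (1.29) and Hoxd10 (-0.32) had stages that did not overlap.

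**Figure D3:**
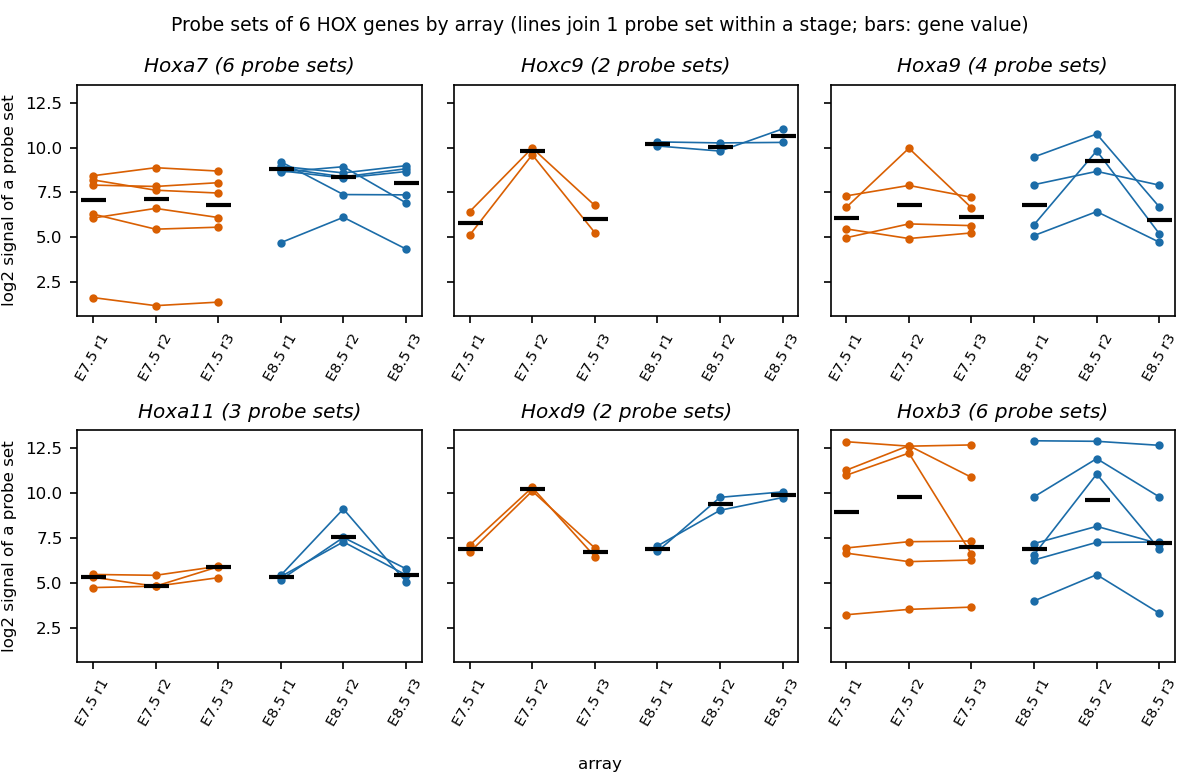
Log2 signal of each probe set of 6 HOX genes in the 6 arrays, with 1 line per probe set (orange E7.5, blue E8.5) and black bars for the gene median. Hoxc9 and Hoxd9 are high in E7.5 replicate 2 in both probe sets, Hoxa11 is high in E8.5 replicate 2 in all 3, and the brightest probe sets of Hoxa7 and Hoxb3 are level across the stages.

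Read along the paralog numbers, the 9 anterior HOX genes (groups 1 to 4) had a median log2 fold change of -0.03 (0.07 after a further quantile normalisation), the 8 central genes (groups 5 to 8) of 0.20 and the 12 posterior genes (groups 9 to 13) of 0.20. Without E8.5 replicate 2 the posterior median was 0.066. Positive values were found in 4 of 9 anterior, 5 of 8 central and 9 of 12 posterior genes. Group 9 was the only group of 3 or more genes in which every gene was positive. Groups 5, 11 and 12, with 1, 2 and 1 genes, were also positive throughout. The 4 genes of group 9, Hoxa9, Hoxb9, Hoxc9 and Hoxd9, had log2 fold changes of 0.99, 0.54, 3.11 and 0.80. Without E8.5 replicate 2 those of Hoxa9 and Hoxb9 were 0.04 and 0.11. Only Hoxc9 among the 4 parted the stages, and none of the 4 had an interval within 2-fold. Across the 29 HOX genes, the log2 fold change and the paralog number had a Pearson correlation of 0.26 and a Spearman correlation of 0.28. The genes share the same 6 arrays, and without E8.5 replicate 2 the correlations were 0.23 and 0.12.

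**Figure D4:**
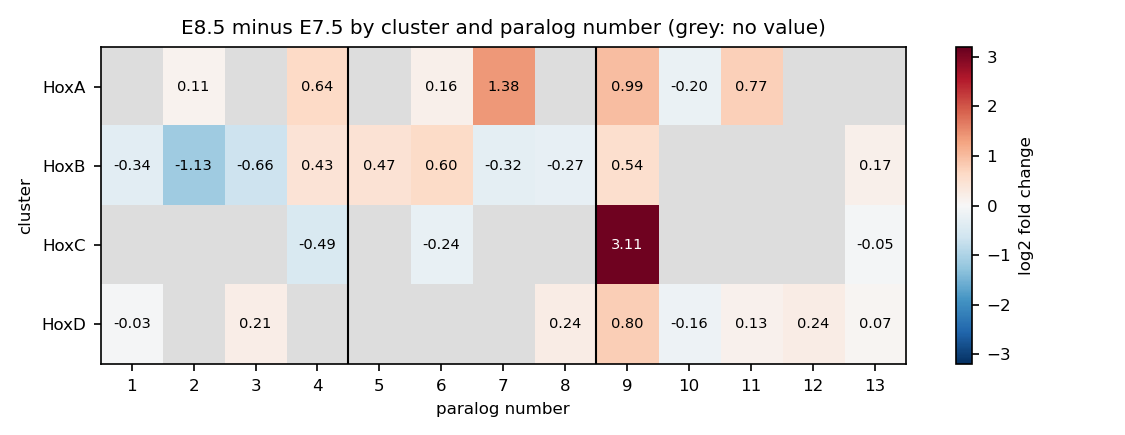
Log2 fold change (E8.5 minus E7.5) of the 29 HOX genes by cluster (rows) and paralog number (columns), with vertical lines after groups 4 and 8. Grey marks a place without a value here, and group 9 is positive in all 4 clusters, from 0.54 to 3.11.

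The arrays did not contribute evenly. E8.5 replicate 2 was the highest of the 6 arrays for 14 of the 37 genes, or 37.8%, against 16.9% of all genes. E8.5 replicate 3 was highest for 10, or 27%, against 17.6% of all genes, and E8.5 replicate 1 for 2. Of the 9 HOX genes highest in E8.5 replicate 2, 6 belonged to groups 9 and above, as did 12 of all 29 HOX genes. For some of them the lead of that array over the next was small. It was 9.23 against 9.14 for Hoxd11, 5.57 against 5.32 for Hoxd12 and 5.58 against 5.50 for Hoxd13. That array was also the highest E8.5 array for 2 of the 5 measured streak and presomitic genes and 3 of the 6 cardiac genes. The same held for 4 of 6 allantois, 4 of 6 somite, 3 of 5 blood, 3 of 7 trophoblast and 4 of 10 endothelial genes. It held for 2 of 6 visceral endoderm genes and 1 of 4 neural genes. The array was highest for the streak gene T (9.55, against 8.00 and 7.02). It was also highest for Hes7, an oscillating gene of the presomitic mesoderm (9.43, against 7.07 and 6.86). Of the cardiac genes, Tnnt2 (11.08, against 6.42 and 7.95) and Actc1 (9.96, against 6.56 and 6.68) were highest there. Tbx6 (6.02, against 6.92 and 6.06) and Dll1 (4.28, against 5.79 and 4.54) were lowest there, and Nkx2-5, Tbx5 and Mef2c were not highest. The part of the marker genes in the HOX values of the array was not tested. As for the spread within a stage, the 3 arrays of a stage spanned more than 2 log2 units in 4 of the 37 genes at E7.5, against 7.63% of all genes, and in 6 at E8.5, against 7.57%.

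At the level of single probe sets the 37 genes leaned towards E8.5. Of their 114 probe sets, 83 (72.8%) had a higher mean at E8.5, against 48.7% of all probe sets with a single symbol. For the HOX genes alone it was 57 of 79 (72.2%). Probe sets of a gene share its transcripts and all share the same 6 arrays, so these are not independent counts. Within genes they often parted, since only 13 of the 31 genes with more than 1 probe set had all of them on the same side.

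The CDX genes were nearly level in their gene medians. Cdx1, which responds to retinoic acid and Wnt signals, was read by a single probe set at 9.41, 9.46 and 9.62 at E7.5 and 9.57, 9.49 and 9.78 at E8.5. Cdx1 had a log2 fold change of 0.11 (SE 0.17, 95% interval -0.31 to 0.53, limma adjusted p = 0.90). Cdx2, needed for trophoblast and for the posterior body axis, read 8.80, 8.40 and 8.67 at E7.5 and 8.46, 8.92 and 8.65 at E8.5, with a log2 fold change of 0.05 (SE 0.21, 95% interval -0.45 to 0.55, limma adjusted p = 0.96). Its probe sets did not move alike, and 2 of 3 were lower at E8.5, by log2 fold changes of -0.51 and -0.44. In the brightest, at 10.56, 10.62 and 10.35 at E7.5 and 9.72, 10.06 and 10.22 at E8.5, the stages did not overlap. For both gene medians the stages overlapped and the gene-level interval lay within 2-fold.

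The MEIS genes had wider spreads. Meis1, a partner of HOXA9 in blood progenitors, was level in 5 of 6 arrays, at 7.34, 7.29 and 7.21 at E7.5 and 7.49 and 7.08 in E8.5 replicates 1 and 2, and was 9.08 in E8.5 replicate 3. The log2 fold change of 0.60 (SE 0.51, 95% interval -0.65 to 1.86, limma adjusted p = 0.81) was 0.0046 without that array. Only the dimmer of the 2 Meis1 probe sets stood apart in E8.5 replicate 3, at 9.71. The brighter read 8.46 there and 8.61 in E8.5 replicate 1. Meis2, which is active in heart and limb mesoderm, read 6.31, 5.86 and 5.91 at E7.5 and 7.02, 7.87 and 6.15 at E8.5. E8.5 replicates 1 and 2 were above every E7.5 array, and replicate 3 was not. Meis2 had a log2 fold change of 0.99 (SE 0.44, 95% interval -0.08 to 2.06, limma adjusted p = 0.68), and 7 of its 9 probe sets were higher at E8.5. In 3 of the 9 the stages did not overlap, and the brightest was level, between 9.96 and 10.36 in all arrays. The median of Meis2 came from other probe sets at E7.5 than at E8.5. Those that gave it at E7.5 had log2 fold changes of their own of -0.10. No size can therefore be given for a stage difference of Meis2 as a whole. Meis3 read 7.46, 6.17 and 5.99 at E7.5 and 5.87, 7.42 and 6.09 at E8.5, with a log2 fold change of -0.08 (SE 0.56, 95% interval -1.44 to 1.28, limma adjusted p = 0.99). A single array in each stage was high.

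Among the PBX genes, Pbx2 had the largest difference in its gene median. It read 9.97, 8.99 and 7.97 at E7.5 and 9.99, 10.08 and 9.79 at E8.5, so that the E8.5 arrays were close together and E7.5 replicate 1 matched them. The log2 fold change was 0.98 (SE 0.49, 95% interval -0.23 to 2.18, limma adjusted p = 0.72). This value sets different probe sets against each other, since the median came from different probe sets in different arrays. The brightest probe set had a log2 fold change of 0.22. No size can therefore be given for a stage difference of Pbx2 as a whole. Of its 7 probe sets, 5 were higher at E8.5 and 2 were lower, by up to 1.55 and -1.50, and in both of these extreme probe sets the stages did not overlap. Pbx3 was level at 7.44, 7.66 and 7.28 at E7.5 and 7.85, 8.12 and 7.16 at E8.5 (log2 fold change 0.25, SE 0.29, 95% interval -0.46 to 0.96, limma adjusted p = 0.865). Pbx4 lay between 7.09 and 7.15 in 4 arrays and was high in E7.5 replicate 3 (9.06) and E8.5 replicate 2 (9.46), which gave a log2 fold change of 0.11 (SE 0.83, 95% interval -1.90 to 2.13, limma adjusted p = 0.99).

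**Figure D5:**
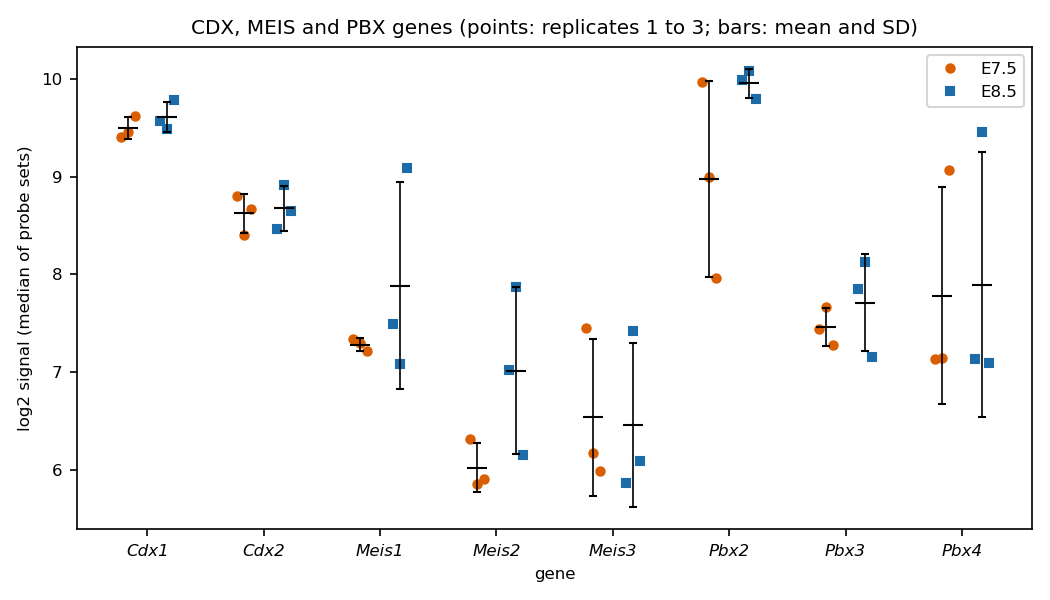
Log2 signal of the 2 CDX, 3 MEIS and 3 PBX genes in each array (orange circles E7.5, blue squares E8.5), with the mean and SD of 3 arrays a stage. Stages overlap in all 8 genes, and single arrays lie apart in Meis1 (9.08), Meis3 (7.46 and 7.42) and Pbx4 (9.06 and 9.46). Values are medians over probe sets, and that of Meis1 is raised by 1 of its 2 probe sets.

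Other genes that act on HOX clusters were taken from 3 lists. Of 17 genes of the axial signals that set HOX expression (retinoic acid, Wnt, FGF and GDF signals), 15 were measured, with a median log2 fold change of 0.0065. Wnt5a, a Wnt ligand of the posterior embryo, was higher at an unadjusted p under 0.05, at 7.02, 7.03 and 6.81 at E7.5 and 8.03, 7.56 and 7.60 at E8.5. T, the Brachyury gene of the primitive streak, was lower, with a log2 fold change of -2.01 (SE 0.68). No gene of this list passed the adjusted threshold, the lowest adjusted p being 0.39 in the limma fit.

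Of 20 chromatin regulators of HOX clusters, 19 were measured, and 1 was higher and 5 were lower at an unadjusted p under 0.05, where 3.11% and 4.68% of all genes were. Their median log2 fold change was -0.11, and the lowest adjusted p was 0.31 (limma). The higher gene was Bmi1, of the Polycomb repressive complex, at 5.86, 6.08 and 5.87 at E7.5 and 6.31, 6.34 and 6.38 at E8.5 (log2 fold change 0.41, SE 0.16). The lower genes were of both activating and repressing complexes. Wdr5, a subunit of the complexes that methylate histone H3 at active genes, had a log2 fold change of -2.44 (SE 0.67). Eed, of the Polycomb complex that methylates histone H3 at silent genes, was at 9.31, 9.27 and 8.71 at E7.5 and 6.08, 6.84 and 7.86 at E8.5 (log2 fold change -2.17, SE 0.47). Kdm6a, a histone demethylase listed under its older symbol Utx, had a log2 fold change of -2.14 (SE 0.70), and Men1, a partner of the histone methyltransferase Kmt2a, one of -1.64 (SE 0.58). Ring1, a Polycomb ubiquitin ligase, was the remaining one, at -0.74 (SE 0.28). Of 16 further TALE, ParaHox and cluster-linked homeobox genes, 15 were measured, none passed an unadjusted p of 0.05 in the limma fit, and the median log2 fold change was -0.11.

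Some HOX genes are known targets of HOX, PBX, MEIS and CDX proteins. The RefSeq table (GRCm38.p6) gave 26 promoters of 24 of the 37 genes. Both strands of the 250 bases before each start were searched for 4 sets of letters, each a simple form of a known motif. TGACAG (MEIS) was found in 1 of the 26, against 15.9% of 32851 promoters in the table. TGATNNAT (PBX-HOX) was found in 4, against 7.68%, TTTATNG (CDX and posterior HOX) in 3, against 9.81%, and TAATTA (homeodomain) in 2, against 4.84%. A match is a stretch of letters and not a bound site, and no match says only that these letters are not in this window. The promoters of Hoxb1 and Hoxb8 are shown because they hold PBX-HOX matches, Hoxb1 with a PBX-HOX match 162 bases before its start, and Hoxb8 with a match on the other strand at 11 bases beside 3 CDX matches at 199, 120 and 110 bases. They were chosen after the matches were seen. Matches are in capitals, and the sequences are those of chr11:96365508-96365757 and chr11:96281655-96281904, both on the plus strand.
Hoxb1: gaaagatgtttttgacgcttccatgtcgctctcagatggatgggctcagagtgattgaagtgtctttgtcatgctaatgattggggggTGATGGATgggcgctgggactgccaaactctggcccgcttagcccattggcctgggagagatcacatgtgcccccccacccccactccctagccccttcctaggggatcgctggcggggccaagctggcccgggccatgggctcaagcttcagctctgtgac
Hoxb8: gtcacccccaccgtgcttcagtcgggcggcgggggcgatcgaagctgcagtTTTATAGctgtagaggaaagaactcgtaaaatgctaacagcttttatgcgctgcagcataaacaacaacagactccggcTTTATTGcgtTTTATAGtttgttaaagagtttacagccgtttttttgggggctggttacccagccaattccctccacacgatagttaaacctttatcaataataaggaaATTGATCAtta

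Neither of these genes parted the stages in its gene median. Hoxb1, of the anterior end of the cluster, read 7.49, 7.93 and 6.85 at E7.5 and 6.85, 7.33 and 7.06 at E8.5. Of its 3 probe sets, 1 was higher at E8.5 and 2 were lower. The higher one, the brightest, did part the stages, at 7.49 to 7.66 at E7.5 and 7.99 to 8.42 at E8.5. The gene median came from a different probe set in each E7.5 array. Hoxb8 read 7.57, 9.25 and 9.35 at E7.5 and 7.86, 8.36 and 9.13 at E8.5, with both probe sets lower on average by at most 0.37. Hoxa2 held a MEIS and a PBX-HOX match and Hoxd11 a PBX-HOX match, and their log2 fold changes were 0.11 and 0.13. Meis2 and Pbx4 held 1 CDX match each.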

How the data were processed

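RNA of 50 sorted ETV2::GFP+FLK1+CD41- cells per array was amplified with the SuperAmp kit and hybridised to Affymetrix GeneChip Mouse Exon 1.0 ST arrays, 3 for each stage. The authors deposited 1 table of log2 signals for 90788 probe sets, made by RMA, and the submitters' processing notes name Affymetrix Power Tools. Versions and the rule by which these probe sets were kept are not given in the sources used here. Amplification from few cells and the quantile step of RMA can widen the spread and narrow large differences. Probe sets with 1 annotated symbol (77669) were kept, and 654 with several symbols and 12465 with none listed were left out. Each gene was the median over its probe sets, without a filter on dim genes. E8.5 was compared with E7.5 in limma 3.58.1 (R 4.3.3), two-sided, with Benjamini-Hochberg adjustment over 16523 genes, and the fit was tested on simulated data. The precision is limited by the 6 arrays. Full statistics were given for CDX, MEIS and PBX genes and for Hoxb3 and Hoxb4. They were also given for HOX genes at an unadjusted p under 0.05 or without overlap of the stages. List genes were named at an unadjusted p under 0.05, and others, such as Etv2, Hes7, Tnnt2 and Actc1, after their values were seen. Members and lists were chosen with earlier results of these data known. Promoters came from a RefSeq table of GRCm38.p6. Alternatives were the mean over probe sets, the brightest probe set, centring on array medians, a further quantile normalisation, filters on level and on probe sets, a replicate block, a trended robust variance and leaving out each array.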

Additional observations from a re-analysis of the deposited data

How the results depend on the processing

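With 3 arrays a stage and 50 cells an array, only large or very even differences can pass an adjusted threshold over 16523 genes, and none of the 37 genes passed it under any alternative run. The lowest adjusted p was 0.051 (limma, without E7.5 replicate 2). Of the 37 genes, 20 kept their sign under every alternative that could be fitted and 17 changed it in at least 1, 6 of them only where an array was left out. The labels do not state whether same-numbered replicates belong together. The deviations of same-numbered arrays from their stage means had correlations of 0.0074, -0.0083 and -8e-04 across genes. With 3 arrays of amplified RNA a stage, these values cannot show whether such samples shared a litter or a day. The main fit used no pairing. With the replicate block, 5 of the 37 genes had an unadjusted p under 0.05 (4 higher and 1 lower, against 3 and 2 without it), and the lowest adjusted p was 0.35 (limma). The median over all genes moved by at most 0.047 under another scaling.

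The count of genes with an unadjusted p under 0.05 was 3 among genes with at least 3 probe sets, and 1 (without E7.5 replicate 3) to 3 when an array was left out. The count without overlap was 5 among genes with at least 3 probe sets, where fewer genes were tested, and 9 to 16 (without E8.5 replicate 3) when an array was left out, where fewer arrays had to be parted. With the mean over probe sets, the median log2 fold change was 0.89 for HoxA, 0.30 for HoxB and 0.48 for central genes. With the brightest probe set it was 0.16 for HoxA, 0.41 for HoxB and 0.052 for HoxC. Among genes above the median level it was 0.99 for HoxA, -0.27 for HoxB, 1.53 for HoxC, -0.18 for anterior, 0.53 for central and 0.48 for posterior genes. Among genes with at least 3 probe sets it was 0.33 for all HOX genes, -0.32 for HoxB, -0.49 for HoxC, 0.039 for HoxD, -0.42 for anterior and 0.65 for posterior genes. Leaving out an array gave 0.17 to 0.98 for HoxA, -0.12 to 0.13 for HoxB, -0.12 to 0.12 for anterior, -0.0069 to 0.46 for central and 0.066 to 0.25 for posterior genes. HoxA and posterior genes were lowest without E8.5 replicate 2 and central genes without E8.5 replicate 3.

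Single genes turned their sign as follows. With the brightest probe set, log2 fold changes were -0.51 for Cdx2, -0.018 for Hoxa2, -0.11 for Hoxa7, 0.63 for Hoxb1, 0.10 for Hoxb2, 0.10 for Hoxb3, 0.54 for Hoxb7, 0.30 for Hoxc6, 0.088 for Hoxd1, 0.26 for Hoxd10 and -0.11 for Pbx4. With the mean over probe sets they were -0.30 for Cdx2, 0.81 for Hoxb7 and 0.030 for Hoxd10. Hoxd1 was 0.018 after centring on array medians and 0.067 after a further quantile normalisation. When an array was left out, the ranges that crossed 0 were -0.067 to 0.16 for Cdx2, -0.38 to 0.065 for Hoxa10, -0.15 to 0.48 for Hoxa6, -0.84 to 0.045 for Hoxb8, -0.15 to 0.060 for Hoxc13, -0.14 to 0.15 for Hoxd1, -0.029 to 0.19 for Hoxd13, -0.56 to 0.38 for Meis3 and -0.67 to 0.75 for Pbx4. The causes were not tested.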
